A study of Mus musculus with 6 samples.

Results

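Barcodes with RNA of Slc17a8 were compared with barcodes with RNA of Gad1 or Gad2, in 1 library of sorted mouse hypothalamus cells. A barcode is the bead tag that stands for 1 captured cell, and a UMI (unique molecular identifier) marks 1 counted RNA molecule. Among the 1555 barcodes of the library, 950 were kept because they held at least 20 UMIs and at least 5 genes. Of these, 90 held at least 1 Slc17a8 UMI and no Gad1 or Gad2 UMI and are called Slc17a8 barcodes. Another 69 held at least 1 Gad1 or Gad2 UMI and no Slc17a8 UMI and are called Gad barcodes. A further 21 held both and 770 held neither. The values of these 3 genes chose the classes, so their levels are a description, and the classes were compared in the other 262 genes of the primer panel.

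All mice were C57/Bl6 and carried the Klb-Cre and Ai14 alleles. Klb-Cre drives Cre recombinase from the gene of the FGF21 co-receptor, and Ai14 switches on the red protein tdTomato in cells in which Cre has acted, so the label stays with cells that used the driver in the past. Hypothalami of 3 mice were pooled for a capture on the BD Rhapsody microwell system, after sorting of live cells for tdTomato, and the series has 3 captures with 2 primer panels each. The library used here is the 1 labelled panel 1 of replicate 1, and no untreated or Cre-negative group was analysed here. Its UMIs all lay in the larger gene set, of 265 genes. The other libraries compared below carry this set under the label panel 2, and the labels were kept as given. A class from 1 capture has no replicate: no p-value can be given, and every interval below is an exact 95% interval that covers counting error alone.

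Slc17a8 encodes VGLUT3, a transporter that loads glutamate into synaptic vesicles and that is best known from neurons which also release another transmitter. Gad1 and Gad2 encode the enzymes that make GABA from glutamate and are standard markers of inhibitory neurons, of which the hypothalamus holds many. The other vesicular glutamate transporter of the panel, Slc17a7, was at 0 in all 950 barcodes. No UMI of Klb was found in any of the classes either. Slc17a6, the main vesicular transporter of hypothalamic glutamate neurons, and the GABA vesicle transporter Slc32a1 were not among the 265 genes measured in this library.

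Each class was chosen by very few molecules. Slc17a8 had 165 UMIs in 111 barcodes (11.7% of the 950, 9.71 to 13.9), and 90 of the 111 held a single UMI. The highest barcode held 31 Slc17a8 UMIs and the next held 5. Gad1 had 94 UMIs in 72 barcodes, 64 of them with a single UMI, with 15 in the highest barcode and 3 in the next. Gad2 had 28 UMIs in 24 barcodes, 23 of them with a single UMI, and 5 in the highest. Among the Gad barcodes, 52 held Gad1 alone, 15 Gad2 alone and 2 both. With a minimum of 2 UMIs in place of 1, the Slc17a8 class had 13 barcodes and the Gad class 4. Just under the depth minimum, 149 barcodes had 15 to 19 UMIs and 3 of them would have been classed, 2 by Slc17a8 and 1 by Gad. Just over it, 129 barcodes had 20 to 24 UMIs, with 1 Slc17a8 and 2 Gad barcodes. All 605 barcodes that were left out had under 20 UMIs, and among them 8 held Slc17a8 and 11 held Gad1 or Gad2.

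Barcodes with the selecting genes were deeper than the rest. The median was 128.5 UMIs in the Slc17a8 class (23 to 2013), 117 in the Gad class (20 to 2444) and 331 in barcodes with both (96 to 3838), against 45 in barcodes with neither (20 to 2256). Slc17a8 barcodes made up 3.90% of barcodes with 20 to 39 UMIs (2.15 to 6.46) and 27.3% of those with 320 and over (16.1 to 41.0). Gad barcodes went from 2.51% (1.15 to 4.71) to 12.7% (5.27 to 24.5) over the same range. The class of a barcode moved with its depth, and levels were therefore taken within 5 bins of total UMIs (from 20, 40, 80, 160 and 320 UMIs). A depth-matched level is the number of UMIs of a gene per 1000 UMIs of the 262 other genes, averaged over the bins with the same weights in each class.

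**Figure D1:**
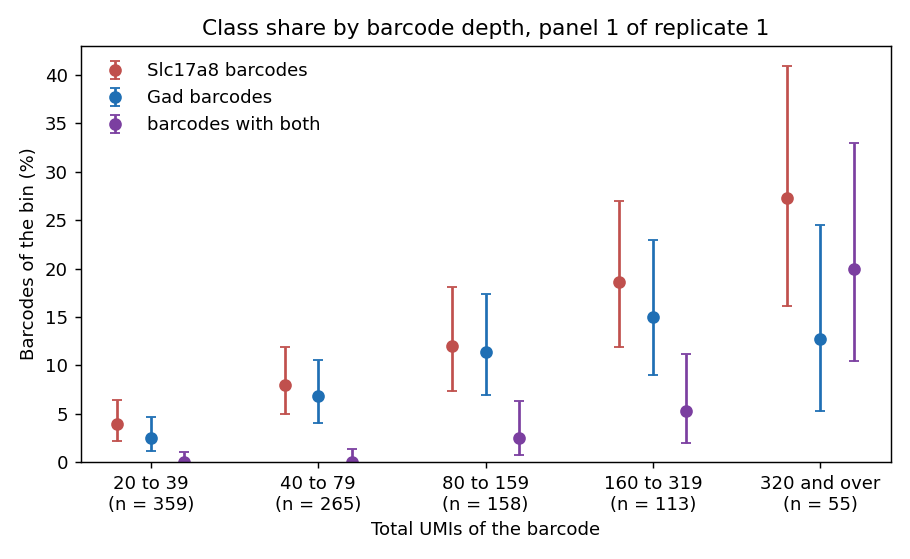
Share of barcodes in each class (vertical axis, percent of the bin) by total UMIs of the barcode (horizontal axis, with the number of barcodes in the bin). Points are shares and bars exact 95% intervals, also for barcodes with both; the share of Slc17a8 barcodes goes from 3.90% in the shallowest bin to 27.3% in the deepest, and that of Gad barcodes from 2.51% to 12.7%.

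Slc17a8 and the Gad genes met in the same barcode in a number close to the product of their shares at equal depth. Both were present in 21 barcodes (13.0 to 32.1), against 18.99 expected when the shares of each bin are multiplied and 10.5 expected without bins. Slc17a8 met Gad1 in 18 barcodes, with 15.6 expected within bins, and Gad2 in 7, with 5.998 expected. Gad1 and Gad2, which the same neurons usually express, met in 6 barcodes (2.20 to 13.1), with 3.82 expected. The observed numbers of these 4 pairs all had intervals that held the expected number. These genes chose the classes and the expected numbers come from the same barcodes, so this is a description. Counts this small cannot tell shared expression from independent detection.

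A background for these shares was taken from barcodes rich in RNA of blood vessel transporters, since vessel cells should make neither marker. In 40 barcodes at least 15% of the UMIs came from Slco1c1, Slco1a4 and Slc2a1, a limit chosen after the values were seen. Among them 7.50% held Slc17a8 (1.57 to 20.4) and 15.0% held Gad1 or Gad2 (5.71 to 29.8), at a median of 32.5 UMIs. Among the other 910 barcodes, with a median of 52, the shares were 11.9% (9.84 to 14.1) and 9.23% (7.43 to 11.3). The Gad share of the other barcodes was not above this background, so no expression is read from it, and the Slc17a8 share lay within its interval; the depths of the groups differed. Per 1000 UMIs, Slc17a8 stood at 0.351 in the vessel-rich barcodes (0.0957 to 0.899) and at 1.71 in the others (1.45 to 1.99), and Gad1 with Gad2 stood at 0.615 (0.247 to 1.27) and 1.22 (1.01 to 1.46). By this measure both levels were higher outside the vessel-rich barcodes, with intervals that did not overlap for Slc17a8 and did for the Gad genes. The vessel-rich values rest on 4 Slc17a8 and 7 Gad UMIs. Barcodes chosen for a large share of vessel UMIs also have a smaller share left for other genes, which lowers both values. Whether a single UMI of a selecting gene came from the cell itself was not tested.

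Outside the selecting genes the classes had nearly the same profile. Of the 262 other genes, 107 had at least 20 UMIs over both classes and were compared, and 155 did not. Their median ratio of Slc17a8 to Gad barcodes was 1.02, and 83 of the 107 (77.6%) differed by less than 1.5-fold. At least 2-fold higher in Slc17a8 barcodes were 9 genes (8.41% of those compared), and at least 2-fold lower were 2 (1.87%). The 10 genes with the most UMIs shared 7 members between the classes, and the same 7 were also in the top 10 of barcodes with neither. Bcas1, a gene of maturing oligodendrocytes, stood at depth-matched levels of 73.7 per 1000 in Slc17a8 and 73.6 in Gad barcodes. Rarres2, which encodes the secreted protein chemerin, stood at 44.8 and 43.3, and Cspg4, the NG2 proteoglycan of oligodendrocyte precursors and pericytes, at 42.4 and 43.3. Ppp1r1b, a phosphatase inhibitor of neurons that respond to dopamine, was the only compared gene at 0 in a class: it had 21 UMIs in 6 Slc17a8 barcodes, 16 of them in 1 barcode, and none in Gad barcodes. Gene levels between genes are UMIs of amplicons and are not per length, so they are compared across classes only.

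**Figure D2:**
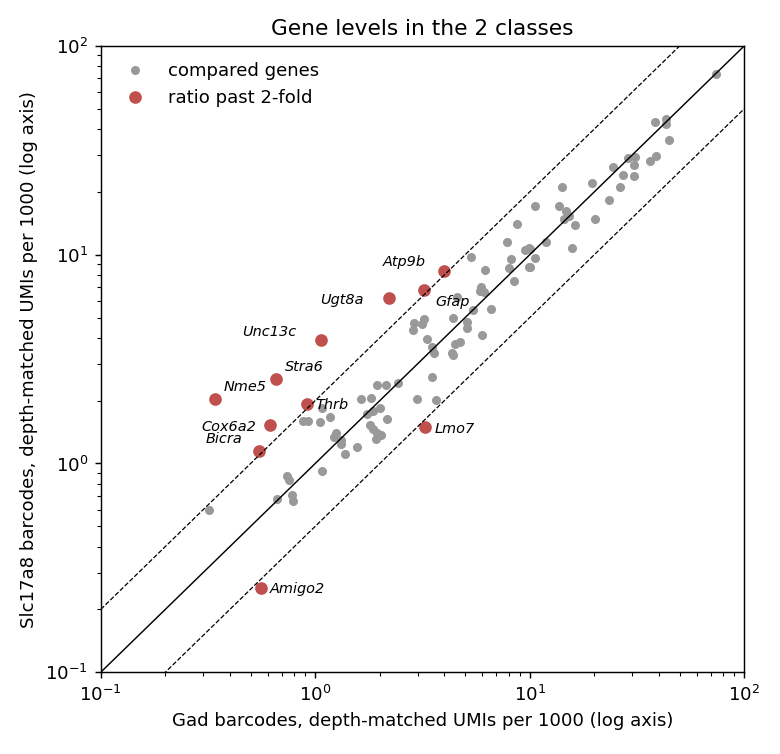
Depth-matched UMIs per 1000 in Gad barcodes (horizontal, log axis) against Slc17a8 barcodes (vertical, log axis); each point is 1 compared gene with UMIs in both classes, the solid line marks equal levels and the dashed lines 2-fold. Most points lie along the solid line (83 of 107 genes within 1.5-fold), and 11 named genes lie past a dashed line. Ppp1r1b, with 21 UMIs in the Slc17a8 and 0 in the Gad class, is not drawn.

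Nme5, a gene of motile cilia and sperm flagella, had the largest ratio between the classes. It had 75 UMIs in 19 of 90 Slc17a8 barcodes (21.1%, 13.2 to 31.0), with a median of 0 and 39 in the highest barcode. In the Gad class it had 8 UMIs in 7 of 69 barcodes (10.1%, 4.18 to 19.8), with 2 in the highest. Barcodes with neither held 39 UMIs in 37 of 770 (4.81%, 3.41 to 6.56), also with 2 in the highest. The ranges overlapped, since most barcodes of every class had no Nme5 UMI. The depth-matched levels were 2.05, 0.34 and 0.65 per 1000, a ratio of 6.01 between Slc17a8 and Gad barcodes and of 3.13 between Slc17a8 barcodes and those with neither. The barcode with 31 Slc17a8 UMIs held 52.0% of the Nme5 UMIs of its class. Without that barcode the fold of Nme5 was 4.54 against Gad barcodes and 2.34 against those with neither. As a share of barcodes within bins, the ratio of Nme5 was 1.73 between Slc17a8 and Gad barcodes, 2.58 between Slc17a8 barcodes and those with neither, and 1.49 between Gad barcodes and those with neither. Slc17a8 and Nme5 met in 26 barcodes (17.0 to 38.1), with 16.6 expected within bins, and Gad1 or Gad2 met Nme5 in 14 (7.65 to 23.5), with 12.7 expected. Under 160 UMIs no Gad barcode held Nme5, against 1 of 14, 1 of 21 and 4 of 19 Slc17a8 barcodes in the 3 bins. From 160 to under 320 UMIs the order of Nme5 was the opposite, with 4 of 17 Gad barcodes (23.5%) and 4 of 21 Slc17a8 barcodes (19.05%). Enkur, which encodes another protein of motile cilia, stood at matched levels of 1.29 per 1000 in the Slc17a8, 1.31 in the Gad and 1.3 in the neither class, with 27 of 47 UMIs of the Slc17a8 class in the barcode with 31 Slc17a8 UMIs.

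Stra6, the receptor through which cells take up vitamin A from its carrier in blood, was the gene whose ratio held under the most settings. It had 47 UMIs in 23 of 90 Slc17a8 barcodes (25.6%, 16.9 to 35.8) and 7 UMIs in 7 of 69 Gad barcodes (10.1%, 4.18 to 19.8). The median barcode was at 0 in both, and the highest held 16 and 1. Depth-matched levels were 2.55 and 0.65 per 1000, a ratio of 3.90, and the ratio of counts without matching was 4.65 (2.09 to 12.2). It was 3.65 without the barcode with the most Stra6 UMIs in each class, 2.33 as a share of barcodes and never under 2 in 11 of 11 other settings. The contrast lay on the Gad side: barcodes with neither stood at 2.27 per 1000, close to the Slc17a8 class (ratio 1.12), while Gad barcodes were at 0.29 of that level. In each depth bin the share of Gad barcodes with Stra6 was the lowest of the 3 classes, from 0 of 9 to 2 of 7.

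Unc13c, which encodes a protein that readies synaptic vesicles for release, had 47 UMIs in 26 of 90 Slc17a8 barcodes and 15 in 13 of 69 Gad barcodes. The highest barcodes held 8 and 2. The depth-matched levels were 3.92 and 1.07 per 1000, a ratio of 3.67, with 2.02 in barcodes with neither. As a share of barcodes within bins the ratio was 1.40, and with classes from 2 UMIs it was 1.05. From 80 to under 160 UMIs the order of the shares was the opposite, with Unc13c in 4 of 19 Slc17a8 and 6 of 18 Gad barcodes. In that bin the 4 Slc17a8 barcodes held 13 UMIs and the 6 Gad barcodes 6. Atp9b, a membrane lipid flippase, had 140 UMIs in 56 of 90 Slc17a8 (62.2%, 51.4 to 72.2) and 65 in 30 of 69 Gad barcodes (43.5%, 31.6 to 56.0). Its levels were 8.34 and 3.97 per 1000, a ratio of 2.10, and barcodes with neither stood at 8.30. In depth-matched level the Gad class was again the one apart, at 0.48 of barcodes with neither. That ratio was 0.61 without matching and 0.79 as a share of barcodes, and past 2-fold in 6 of 10 settings. From 160 UMIs on, more Gad barcodes than barcodes with neither held Atp9b, with 82.4% against 75.4% and, from 320, 85.7% against 81.8%. The share of barcodes with Atp9b was higher in the Slc17a8 class in 4 of the 5 bins and lower, with 71.4% against 82.4%, from 160 to under 320 UMIs.

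**Figure D3:**
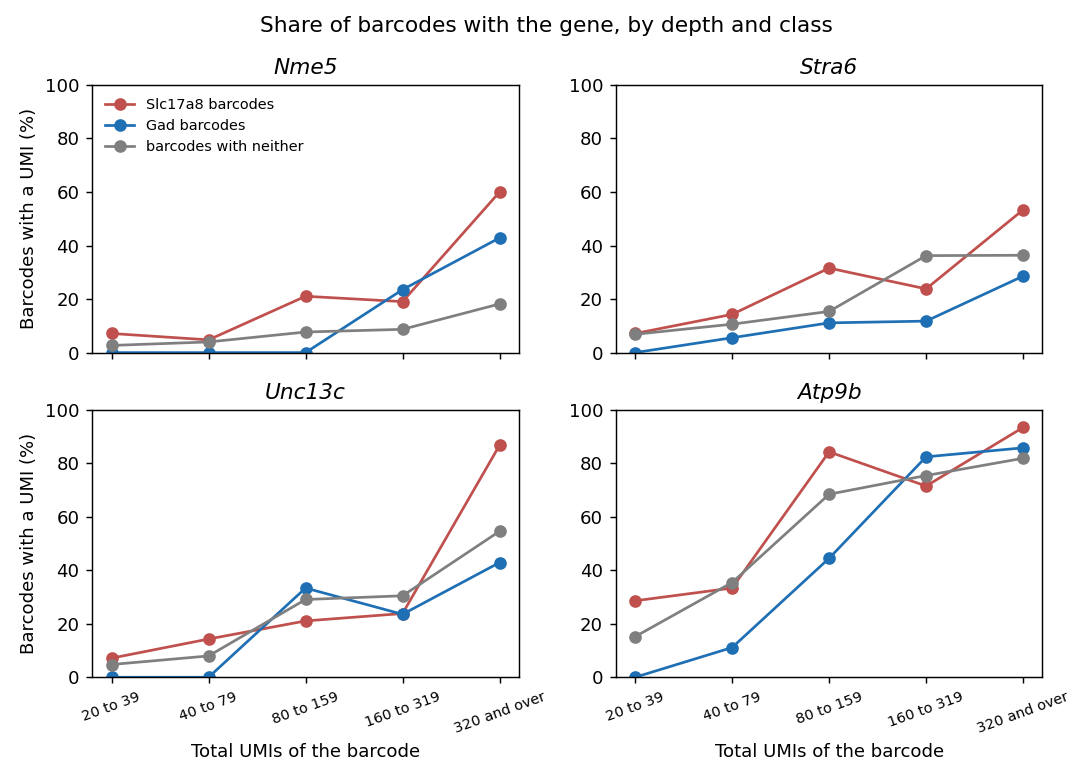
Percent of barcodes with at least 1 UMI (vertical axes) of 4 genes by total UMIs of the barcode (horizontal axes), in Slc17a8, Gad and neither barcodes (lines join the bins of a class). Every share is higher from 320 UMIs than under 40; the Gad class is lowest for Stra6 in every bin, and Nme5 is absent from Gad barcodes in the 3 bins under 160 UMIs.

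The other 5 higher genes were Cox6a2, Thrb, Gfap, Bicra and Ugt8a. Cox6a2, a subunit of cytochrome c oxidase of muscle and some neurons, had 57 UMIs against 8, but 40 of the 57 were in 1 barcode, and its ratio of 2.48 was 1.66 without the top barcode of each class. Thrb, a thyroid hormone receptor, had 53 against 11 UMIs, with 31 in the barcode with 31 Slc17a8 UMIs, and a ratio of 2.12 that was 1.66 without that barcode. Gfap, the filament of astrocytes and tanycytes, had 88 UMIs in 43 Slc17a8 barcodes and 41 in 27 Gad barcodes, with 11.4% of the 88 in the highest barcode. Its ratio of 2.10 was 1.45 without the top barcodes and 1.15 as a share of barcodes, and was above 1 in all 11 other settings. Bicra, a chromatin remodelling subunit, had 11 UMIs in each class, a matched ratio of 2.10 and a ratio of 0.69 without matching. Ugt8a, the enzyme that makes the myelin lipid galactocerebroside, reversed: its ratio of 2.81 was 0.38 without the top barcodes, and it was in 16.7% of Slc17a8 against 24.6% of Gad barcodes. Its highest Slc17a8 barcode held 16 Ugt8a UMIs among 37 in all.

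Lower in Slc17a8 barcodes were Lmo7 and Amigo2. Lmo7, a protein of cell junctions, had 28 UMIs in 18 of 90 Slc17a8 and 37 in 18 of 69 Gad barcodes, at levels of 1.49 and 3.26 per 1000 (ratio 0.46). Its level in barcodes with neither was 1.84. The ratio of Lmo7 was 0.70 as a share of barcodes and 0.57 after thinning, and was past 2-fold in 8 of 11 other settings. Its highest bin level in Gad barcodes, 3.97 per 1000 from 20 to 39 UMIs, came from 1 UMI. Amigo2, an adhesion protein of neurons and vessels, had 7 UMIs in 6 barcodes against 13 in 8, at 0.25 and 0.56 (ratio 0.45), and 0.86 in barcodes with neither. With classes from 2 UMIs Amigo2 had no ratio, since the Slc17a8 class had no UMI of it and the Gad class at most 3. Neither was in a majority of the barcodes of any class.

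**Figure D4:**
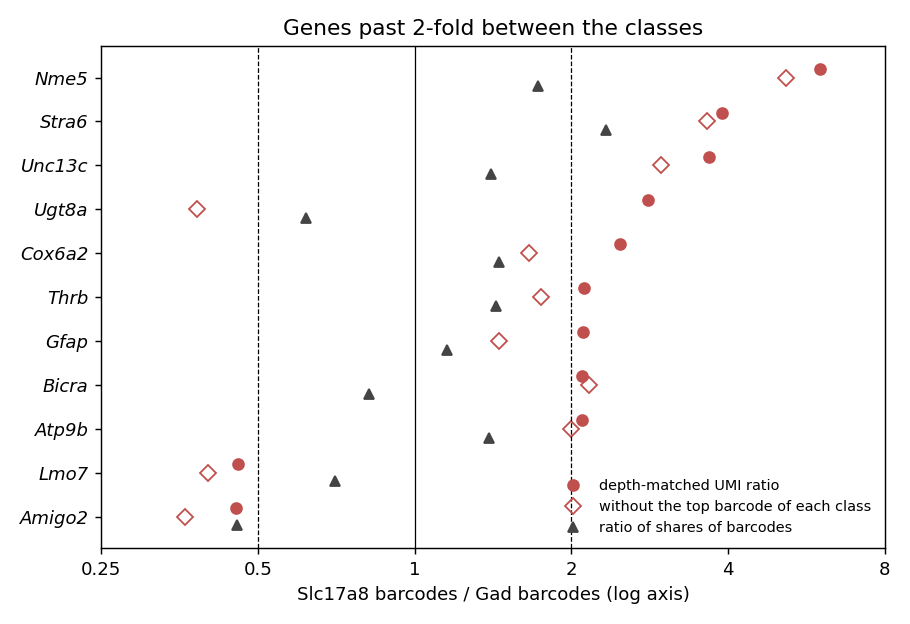
Ratio of Slc17a8 to Gad barcodes (horizontal, log axis) for the 11 genes past 2-fold, as depth-matched UMIs (filled circles), the same without the barcode with the most UMIs of the gene in each class (open diamonds), and shares of barcodes with the gene (triangles). Stra6 alone stays past 2-fold on all 3 measures among the higher genes, Nme5 goes from 6.01 to 1.73, and Ugt8a changes side.

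Against barcodes with neither marker, the Slc17a8 class again differed in few genes. Of 123 genes compared, 4 were at least 2-fold higher (3.25%) and 4 at least 2-fold lower (3.25%), in all 6.5%, with a median ratio of 0.995 and 97 genes within 1.5-fold. Besides Nme5 and Ugt8a the higher genes were Nfix and Eno2. Nfix, a transcription factor of neural progenitors and glia, had 13 UMIs in 8 of 90 Slc17a8 barcodes and 18 in 15 of 770 with neither. Its levels were 0.98 and 0.29 per 1000, a ratio of 3.31, and the unmatched ratio was 2.38 (1.07 to 5.13). Of the 13 UMIs, 2 lay in the bin of 20 to 39 UMIs, where they gave 4.61 per 1000, its highest bin level. Eno2, the neuronal form of the glycolytic enzyme enolase, had 21 UMIs in 12 barcodes and 33 in 33, at 1.60 and 0.56 (ratio 2.84). The barcode with 31 Slc17a8 UMIs held 10 of the 21, and the ratio was 2.60 without it. In the bin of 20 to 39 UMIs, 2 Eno2 UMIs gave 4.61 per 1000, its highest bin level, and the unmatched ratio was 2.10 (1.15 to 3.73). Gad barcodes stood at 0.92 for Eno2, 1.64 times the level of barcodes with neither.

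The 4 lower genes of the Slc17a8 class were mostly rare. Gria2, an AMPA glutamate receptor subunit, had 2 UMIs against 22, and Adra2a, an adrenergic receptor that inhibits its cell, had 3 against 46. The matched ratios were 0.077 for Gria2 and 0.27 for Adra2a, and as shares of barcodes they were 0.49 and 0.51. The unmatched ratios of these counts were 0.30 (0.03 to 1.22) and 0.21 (0.04 to 0.67), with Gria2 at an interval that held 1. The 2 Gria2 UMIs of the Slc17a8 class lay in barcodes of 320 UMIs and over. In that bin the order was the opposite, with Gria2 in 2 of 15 Slc17a8 barcodes and 1 of 22 with neither. Amigo2 had a matched ratio of 0.30. Tshb, the beta chain of thyrotropin, had 23 against 151 UMIs and a ratio of 0.50, but 55 of the 151 were in 1 barcode and the ratio was 0.66 without the top barcodes.

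The Gad class was compared with the same barcodes with neither, so both comparisons share them. Of 121 genes compared, 2 were at least 2-fold higher (1.65%) and 7 at least 2-fold lower (5.79%), in all 7.44%, with a median ratio of 0.96 and 95 genes within 1.5-fold. Mgat4b, an enzyme that branches sugar chains on proteins, had 7 UMIs in 6 of 69 Gad and 18 in 13 of 770 other barcodes (ratio 3.32; unmatched 1.85, 0.65 to 4.64). Oprl1, the nociceptin receptor, had 5 UMIs in 5 barcodes and 22 in 17 (ratio 2.08; unmatched 1.08, 0.32 to 2.93). Both intervals held 1, and with classes from 2 UMIs Mgat4b was at 0.26. The highest bin level of Mgat4b, 3.97 per 1000 from 20 to 39 UMIs, came from 1 UMI. That of Oprl1, 2.13 per 1000 from 40 to 79 UMIs, came from 2. The lower genes were Stra6 (0.29), Cox6a2 (0.30), Vipr1 (0.38), Tubb3 (0.43), Sox8 (0.44), Ntrk2 (0.45) and Atp9b (0.48). The direction of Ntrk2 turned as a share of barcodes (1.13) and that of Sox8 with classes from 2 UMIs (1.13), where Tubb3 and Vipr1 were at 0 in the Gad class and had no ratio. Vipr1, a receptor of the peptide VIP, had 3 UMIs in Gad barcodes, with an unmatched ratio of 0.59 (0.11 to 1.96), and the neuronal tubulin Tubb3 had 2, with 0.50 (0.06 to 2.08). The glial transcription factor Sox8 had 4 UMIs against 47 and the neurotrophin receptor Ntrk2 6 against 65. Of the 7 only Stra6, Cox6a2 and Atp9b had unmatched intervals below 1, which were 0.09 to 0.48, 0.13 to 0.62 and 0.46 to 0.79. For Cox6a2, 27 of the 124 UMIs in barcodes with neither lay in 1 barcode of 32 UMIs. Its ratio was 0.36 without the top barcodes and 0.64 as a share of barcodes. From 80 to under 160 UMIs, and in no other bin, Cox6a2 was in a larger share of Gad barcodes (22.2%) than of those with neither (14.5%).

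Genes of neuronal structure and synapse had a higher summed level in Slc17a8 than in Gad barcodes. The ratio of 1.52 was near the 1.47 of mural cell genes, so the rise was not particular to neuronal genes. Of 6 measured genes of neuronal structure and synapse, Stmn2, Tubb3, Gap43, Vamp2 and Ndrg4 were detected and Syt1, a calcium sensor of vesicle release, was at 0. Their summed matched level was 17.2 per 1000 in Slc17a8, 11.3 in Gad and 14.0 in neither barcodes, and 0 of the 3 genes compared between the classes were past 2-fold, too few to set against the 10.3% of all genes that were past it either way. The vesicle protein Vamp2 made up most of it, at 14.1, 8.68 and 11.1 per 1000. The barcode with 31 Slc17a8 UMIs held 44 of the 296 UMIs of this list in Slc17a8 barcodes, 41 of them Vamp2. Stmn2, a cytoskeleton gene of neurons, was at 0.83, 0.76 and 1.29 per 1000, so that barcodes with neither had the highest level. Gap43, a gene of growing axons, was in 23.3% of Slc17a8, 21.7% of Gad and 7.40% of neither barcodes, at matched levels of 2.03, 1.63 and 1.07 per 1000. In a wider list of 23 neuronal genes, written after the panel's gene names were seen, 13 were detected. Of those, 7 could be compared between Slc17a8 and Gad barcodes, with a median ratio of 1.51 against 1.02 over all genes, and 1 of them (Unc13c) was past 2-fold, a number near that 10.3%.

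Dlx1 and Lhx6, transcription factors of GABA neurons, were at 0 in all classes. Slc6a11, a GABA uptake transporter found in astrocytes, was at matched levels of 4.91 per 1000 in Slc17a8, 3.22 in Gad and 3.30 in neither barcodes, with 85 of 153 UMIs of the Slc17a8 class in 1 barcode. All 5 measured neuropeptide genes (Pdyn, Nmu, Nms, Qrfp and Ucn3) were at 0 in all classes. Over the whole panel, 108 of 265 genes were at 0 in the kept barcodes and 157 were detected. With a limit of 3 counts, a count of 0 allows a share of barcodes with a UMI of up to 3.33% in the Slc17a8 and 4.35% in the Gad class. The exact 95% interval of Slc17a7, as of any gene at 0, reached 4.02% and 5.21%. Of 47 receptors of peptides, steroids and amines, 12 were detected and 3 could be compared between the classes, none of them past 2-fold, which at a share of 10.3% over all genes says nothing about receptors. The classes are called by the genes that chose them and not as neuron types, since the neuronal genes did not go one way. Stmn2 was lower in both classes than in barcodes with neither, and Gap43 and Eno2 were higher in both. Vamp2 was higher in Slc17a8 and lower in Gad barcodes. Dlx1, Lhx6 and Slc17a7 were at 0, which with 108 of 265 genes at 0 says little about these classes.

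Markers of other cell types were present in both classes. The ratios of their summed levels, Slc17a8 to Gad barcodes, went from 0.79 for fibroblast and matrix genes to 1.47 for mural cell genes. Summed matched levels in Slc17a8, Gad and neither barcodes were 108, 134 and 122 per 1000 for 4 endothelial genes and 69.8, 88.4 and 81.7 for 4 detected fibroblast and matrix genes of 5 measured, with Col1a1 at 0 and Fn1 counted in both lists. They were 47.1, 46.2 and 49.8 for both oligodendrocyte precursor genes and 41.5, 33.1 and 35.3 for the 6 detected of 7 tanycyte genes, with Scn7a at 0. The 4 detected of 5 ependymal genes, which include Nme5, summed to 49.9, 46.7 and 48.6, with Tmem212 at 0. The myeloid Fc receptor gene Fcer1g was at 21.1, 26.3 and 30.7, the only member of its list that was measured. Of the genes compared between the classes, 0 of 4 endothelial, 0 of 4 fibroblast, 0 of 5 tanycyte, 0 of 2 precursor and 1 of 4 ependymal genes were past 2-fold, against 10.3% of all genes either way. Among smaller lists, Gja1 and Gfap of astrocytes summed to 23.0, 17.9 and 17.0, mural cell genes to 16.2, 11.0 and 13.1, genes of hypothalamic regions to 7.62, 5.28 and 5.46, monoamine genes to 2.05, 1.75 and 1.57, pars tuberalis genes to 3.16, 3.21 and 4.91 and early response genes to 65.2, 66.5 and 72.0. Gfap was the only gene of these lists past 2-fold between the classes. The FGF21 receptor list had Klb at 0 and Fgfr1 at 8.61, 8.02 and 8.18 per 1000. TdTomato RNA of the sorted reporter was at 4.44, 5.08 and 4.84 per 1000. The part of these cell types in the differences between the classes was not tested.

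**Figure D5:**
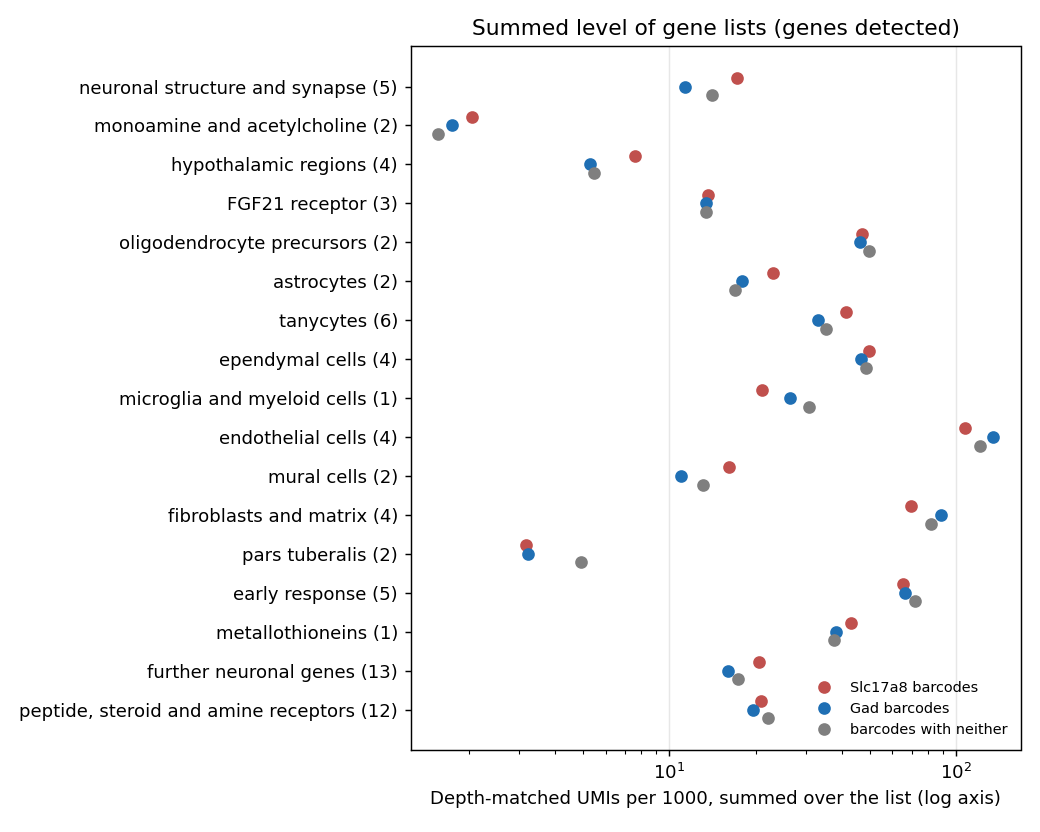
Summed depth-matched UMIs per 1000 (horizontal, log axis) of the gene lists shown, in Slc17a8, Gad and neither barcodes; the number of detected genes stands in brackets. The FGF21 receptor list, which includes tdTomato, has nearly equal points (13.7, 13.4 and 13.4), and the endothelial points are lowest in Slc17a8 and highest in Gad barcodes (108, 134 and 122).

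Single deep barcodes carried much of some pooled counts. The deepest Slc17a8 barcode had 2013 UMIs and 1 Slc17a8 UMI, and its leading genes were the metallothionein Mt2 (252 UMIs), the tanycyte receptor Gpr50 (216) and the corepressor Trim28 (124). It held 283 UMIs of tanycyte genes, and without matching that list stood at 62.7 per 1000 in Slc17a8 against 31.1 in Gad barcodes. The deepest Gad barcode had 2444 UMIs and 2 Gad1 UMIs, led by the vessel transporters Slco1c1 (263) and Slc2a1 (224) and by fibronectin, Fn1 (221), and 889 of its UMIs were of endothelial genes. The deepest barcode with both had 3838 UMIs, of which 956 were Fn1, with 2 Slc17a8, 2 Gad1 and 1 Gad2 UMIs.

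The barcodes with at least 5 UMIs of a selecting gene numbered 3, and they were singled out after their values were seen. The barcode with 31 Slc17a8 UMIs had 987 UMIs in 97 genes, with Mt2 at 81, the thyroid hormone binder Crym at 55, Gpr50 at 43, Vamp2 at 41, Nme5 at 39, the Wnt signal enhancer Rspo3 at 32, Thrb at 31, Rarres2 at 30 and Enkur at 27. Tanycyte genes gave 112 of its UMIs and ependymal genes 97, while Stmn2 gave 1 and Tubb3 none. A barcode with 5 Slc17a8 UMIs had 449 UMIs, led by Gpr50 at 47 and the GABA receptor subunit Gabra3 at 35. The barcode with 15 Gad1 and 5 Gad2 UMIs had 213 UMIs, led by Bcas1 at 11, Fn1 at 10 and Mt2 at 10, with Stmn2 at 1 and Dlx1 at 0.

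The 13 Slc17a8 barcodes with at least 2 UMIs were set beside the 77 with 1, without depth matching, at medians of 236 and 107 UMIs. Nme5 stood at 9.96 per 1000 in the former (7.37 to 13.2) and at 1.88 in the latter (1.23 to 2.75), but at 2.52 (1.21 to 4.64) without the barcode with 31 UMIs. Enkur went from 6.71 to 1.51 per 1000 when that barcode was left out, against 1.01 with 1 UMI. Genes of neuronal structure and synapse stood at 21.1 (17.3 to 25.6), at 15.1 (11.5 to 19.5) without that barcode, and at 13.9 with 1 UMI. Among Gad barcodes they stood at 5.95 (3.58 to 9.29) in the 4 with at least 2 UMIs and at 12.4 (10.3 to 14.8) in the 65 with 1. Without the deepest Gad barcode, of 2444 UMIs, the value in the other 3 was 10.6 (4.59 to 21.0).

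The other libraries with these genes could not repeat the comparison. Slc17a8 and Gad1 were at 0 in panel 2 of replicates 1, 2 and 3, with 44, 43 and 87 barcodes, which allows shares of up to 6.82%, 6.98% and 3.45% with a limit of 3 counts and of up to 8.04%, 8.22% and 4.15% by the exact interval. The Slc17a8 share of the library used here (11.7%, 9.71 to 13.9) lay above all 3 exact limits. That of Gad1 (7.58%, 5.98 to 9.45) lay above the limit of replicate 3 alone. Median depths there were 115.5, 1352 and 1068 UMIs, against 51 here. Slc17a8 was not alone: Slco1c1, Gpr50, Crym, Tshb, Lmo7, Unc13c and Slc6a11 also had no UMI in panel 2 of replicate 3. Bcas1, Rarres2 and Cspg4 were found in that library. Why Slc17a8 and these other genes were missing was not tested. Gad2 was found in replicate 3 alone, in 68 of 87 barcodes (78.2%, 68.0 to 86.3). No cell index was shared between these barcodes and the 950 of the library used here. In panel 2 of replicate 3, Gad2 barcodes (median 1156.5 UMIs) were set beside the 19 without Gad2 (median 876), with levels matched by a split of total UMIs. Of the genes lower in Gad barcodes here, Cox6a2 had a ratio of 1.3 there, Vipr1 1.13 and Atp9b 0.93, while Stra6, Tubb3, Sox8 and Ntrk2 had no UMI. Of the higher genes, Mgat4b had a ratio of 0.88, and Oprl1 had 7 UMIs in Gad2 barcodes and 0 in the 19 others. None of the 3 lower genes with UMIs in that library was near its ratio here, and Nme5 had 1 UMI there in all.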

How the data were processed

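RNA was measured in single sorted cells of mouse hypothalamus with a targeted primer panel. The deposited values are UMI counts per barcode and amplicon, with no normalization, which the authors' Rhapsody pipeline of BD wrote (1.3 here, 1.5 elsewhere), per the file headers. The submitters' processing notes name mm9. How cells were called is not given in the sources used here. The table holds 290 amplicons of 265 genes, with no UMI in the 80 columns of the other panel. Amplicon counts were added per gene.

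Kept were barcodes of at least 20 UMIs and 5 genes (105772 UMIs, median 51). Genes with at least 20 UMIs over the 2 classes compared were compared, and a 2-fold difference in depth-matched UMIs per 1000 was the limit, with no test, because the classes come from 1 capture. Bins were weighted by their Slc17a8 and Gad barcodes. A class at 0 took a level of 3 UMIs per class, as a bound, and no ratio was given with both classes at or under 3 UMIs. Shares have Clopper-Pearson and sums Poisson 95% intervals; ratios of unmatched counts have the exact binomial interval. Expected co-detection multiplied the shares within each bin. Doublets were not called; the deepest 5% of barcodes were left out as an alternative, and shares were repeated after thinning to 35 UMIs (leaving out 10 Slc17a8, 8 Gad and 289 neither barcodes). The steps were tested on simulated data. Amplicon sequences were not used here, and some genes are not reported here.

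Named genes were the selecting and FGF21 receptor genes, up to 10 genes past 2-fold in each direction of each comparison, the 10 genes with the most UMIs in the Slc17a8 and Gad classes, the 4 members of each gene list with the most UMIs, and members of the neuronal, GABA, glutamate and peptide lists with at least 20 UMIs. The lists of 23 neuronal genes and of 47 receptors were added after the panel's genes were seen. Enkur, Gabra3, Rspo3 and the genes of single deep barcodes were chosen after their values were seen. The members and lists were chosen with earlier results of these data known. For the other libraries, barcodes of the larger gene set were used, and 21 that stood in tables of 2 replicates were left out. Python 3.11.15, numpy 2.4.6, pandas 2.3.3, scipy 1.17.1 and matplotlib 3.10.9 were used.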

Additional observations from a re-analysis of the deposited data

How the results depend on the processing

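Of 28 ratios past 2-fold, 285 values under other settings were computed, and 273 kept their direction. Not all of these stayed past 2-fold. Between Slc17a8 and Gad barcodes, Stra6 did so in 11 of 11 settings and Thrb in 4 of 11. In Slc17a8 barcodes against those with neither, Gria2 did so in 10 of 10 settings and Tshb in 2 of 10. The values of Gria2 rest on at most 2 UMIs in the Slc17a8 class. In Slc17a8 against Gad barcodes, the reversed values were 0.69 without bins for Bicra and 0.82 as a share of barcodes, and for Ugt8a 0.62 as a share, 0.71 after thinning and 0.38 without the top barcodes. With classes from 2 UMIs Ugt8a was 0.098. Against barcodes with neither, Ugt8a was 0.96 after thinning, 0.58 without the top barcodes and 0.25 from 2 UMIs in the Slc17a8 class. In the Gad class Ntrk2 was 1.13 as a share, and from 2 UMIs Mgat4b was 0.26 and Sox8 1.13, each with 1 UMI in the Gad class. From 2 UMIs, 6 ratios had no value because a class was at 0 or both had at most 3 UMIs: Amigo2, Bicra and Cox6a2 between Slc17a8 and Gad barcodes, and Oprl1, Tubb3 and Vipr1 in the Gad class. The cause of these reversals was not tested, except that the settings without the top barcode or from 2 UMIs rest on fewer barcodes.

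The numbers of genes past 2-fold moved with the setting. For higher genes in Slc17a8 against Gad barcodes (9 here) they were 15 without bins, of which 5 were among the 9, 1 as a share, 3 after thinning, 4 without the top barcodes, 14 with no minimum of UMIs, 21 at a fold of 1.5 and 14 with classes from 2 UMIs. For lower genes (2) they were 1 as a share, 1 after thinning, 4 without the top barcodes, 4 with a minimum of 10 UMIs, 8 with none and 7 from 2 UMIs. For higher genes in Slc17a8 barcodes against neither (4) they were 11 without bins, 7 with no minimum, 14 at 1.5-fold and 14 from 2 UMIs, and for lower genes (4) 2 as a share, 10 with a minimum of 10 UMIs, 12 with none, 12 at 1.5-fold and 17 from 2 UMIs. For higher genes in Gad barcodes against neither (2) they were 0 without bins, 4 without the top barcodes, 4 with no minimum, 10 at 1.5-fold, 6 from 2 UMIs and 4 with Gad1 alone, and for lower genes (7) 2 as a share, 2 after thinning, 12 with a minimum of 10 UMIs, 13 with none, 16 at 1.5-fold and 24 from 2 UMIs. The expected number with both markers was 10.5 without bins, against 18.99. Leaving out the barcode with 31 Slc17a8 UMIs left 8 of the 9 higher genes, a setting chosen after seeing the data, as was leaving out the barcode with 15 Gad1 UMIs, which gave 10. No paired analysis was possible because all classes come from 1 library and no test was run. Depth limits these values: 10 of the 11 genes past 2-fold between Slc17a8 and Gad barcodes had under 60 UMIs in at least 1 class.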
